A study of Mus musculus with 8 samples.

Results

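Vascular endothelial growth factors (VEGFs), platelet-derived growth factors (PDGFs) and their receptors were examined in Min6 cells, which derive from a mouse insulinoma and resemble pancreatic beta cells, with and without forced expression of Zac1. The 10 genes were the ligands Pgf, Vegfa, Vegfb, Vegfc, Pdgfa and Pdgfb and the receptors Flt1, Kdr, Flt4 and Pdgfrb. They were picked by symbol, and each matched 1 of the 23100 genes in the deposited count table. Plagl1 encodes Zac1, a zinc finger transcription factor. The treated group received pRK5-Zac1 and the control group pRK5-NLSeGFP, which encodes a green fluorescent protein sent to the nucleus. Both groups were transfected with Lipofectamine, and RNA was prepared 16 h later. Each group held 4 libraries, numbered 1, 2, 3 and 5, which the design text calls biological replicates. All 8 libraries come from 1 tumour line. The share of cells that took up plasmid is not given in the sources used here, so each value is an average over cells with and without it, and fewer expressing cells cannot be told apart from less RNA per cell.

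VEGFs and PDGFs are related secreted dimers that bind receptor tyrosine kinases. VEGF-A signals through the receptors encoded by Flt1 and Kdr, VEGF-B and placental growth factor bind the Flt1 product, and VEGF-C signals mainly through the Flt4 product. PDGF chains bind the receptors encoded by Pdgfra and Pdgfrb, which mesenchymal and mural cells carry. In islets, VEGF-A from beta cells is known to maintain the dense capillary bed, whose endothelial cells carry the VEGF receptors.

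Pgf, Flt1 and Pdgfb rose with Zac1, and the main ligand of these cells, Vegfa, differed by less than the spread between libraries. Of the 10 genes, 8 had enough counts to be tested, and 3 of these were called higher and 0 lower at an edgeR adjusted p under 0.05. By the same rule 2.18% of all 14331 tested genes were called in either direction, 2.15% higher and 0.0349% lower. Kdr and Pdgfrb, both receptors, had too few counts for the test. The 4 Zac1 libraries all lay above the 4 control libraries for Pgf, Flt1 and Pdgfb and for none of the other 7 genes. Such a gap was seen in 4.39% of all tested genes. Flt1, Pdgfb and, in 1 control library, Pgf were below the filter's cutoff of 0.287 CPM (counts per M counts of a library) in control libraries and entered the test through their level with Zac1, which raises the share called among the tested members.

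Library totals ran from 30.5 to 42.4 M counts. Plagl1 was 59.6-fold higher in the Zac1 libraries (edgeR adjusted p = 1.45e-09), with plasmid and endogenous transcripts counted together. All 12 beta cell markers examined were tested, and 0 were called (edgeR; 0 also in DESeq2 and limma-voom, and 0 at an unadjusted p under 0.05). Of 10 endothelial markers, Cdh5 and Cldn5 had no count in any library, and 7 stayed under 1 CPM in every library. The summed level of the 10 was 16.6 to 20.3 CPM in controls and 17.0 to 19.9 CPM with Zac1, most of it Esam. Of 10 mural cell and fibroblast markers, Lum had no count in any library and 6 stayed under 1 CPM. Their summed level was 3.04 to 3.49 CPM in controls and 3.95 to 4.94 CPM with Zac1. Des, the muscle intermediate filament desmin, was the called gene among them, at 0 to 0.114 CPM in controls and 1.04 to 1.83 CPM with Zac1. Myh11, Tagln and Thy1, the other tested markers of this list, lay in the opposite direction. They were at 0.937-fold, 0.795-fold and 0.763-fold with Zac1, and none was called. In the edgeR fit without a low-count filter, 9 markers of this list were tested. There 3 were higher and 0 lower at an unadjusted p under 0.05, and Des was again the called gene. Over all tested genes of the main fit, 5.65% were higher and 1.93% lower at an unadjusted p under 0.05. The part of this list in the changes below was not tested. The 7 macrophage markers summed to 34.5 to 48.4 CPM in controls and 34.0 to 42.1 CPM with Zac1, most of it C1qa. Levels are CPM on library totals scaled by TMM (the trimmed mean of M-values).

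Sequence upstream of the start sites is shown for members on either side of the test. RefSeq promoter windows (build GRCm38.p6) were found for 8 of the 10 genes, in 11 windows of 250 bases. Pdgfb, a called gene, and Pdgfrb had no window and were not searched. Both strands were searched for GGGGCCCC, a palindrome described as a Zac1 recognition sequence, and for its part GGGGCC, which reads GGCCCC on the other strand. These motifs were chosen with the windows in view, and every GGGGCCCC also holds GGGGCC. GGGGCCCC was in none of the 11 windows, and 0.889% of all 32851 windows held it. GGGGCC was in 3 windows, those of Pgf, Flt1 and Vegfb, against 22.0% of all windows and 32.0% of the windows of tested genes. Such a match is a run of letters and does not show binding. In the sequences below, read 5′ to 3′ on the strand of the gene, capitals mark GGGGCC or GGCCCC. The Flt1 window (chr5:147726012-147726261, minus strand) and the upstream Vegfa window (chr17:46032378-46032627, minus strand) are whole, the first with 2 matches and a called gene, the second with no match and a gene that was not called. Vegfa and Pgf each have a further window, downstream of the one shown, and neither holds GGGGCC (Vegfa chr17:46025164-46025413, Pgf chr12:85175983-85176232, minus strand). For Pgf, whose upstream window lies inside the first exon of a longer GENCODE transcript, the 30 bases around each match are given (chr12:85177469-85177498 and chr12:85177365-85177394, minus strand). They are followed by the match of Vegfb (chr19:6987671-6987700, minus strand), which was not called.
Flt1: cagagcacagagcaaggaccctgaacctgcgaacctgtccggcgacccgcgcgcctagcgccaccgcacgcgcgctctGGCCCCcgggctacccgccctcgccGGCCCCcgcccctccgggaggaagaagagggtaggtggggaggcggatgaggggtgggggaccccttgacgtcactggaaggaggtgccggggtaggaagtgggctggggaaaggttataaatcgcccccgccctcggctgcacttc
Vegfa: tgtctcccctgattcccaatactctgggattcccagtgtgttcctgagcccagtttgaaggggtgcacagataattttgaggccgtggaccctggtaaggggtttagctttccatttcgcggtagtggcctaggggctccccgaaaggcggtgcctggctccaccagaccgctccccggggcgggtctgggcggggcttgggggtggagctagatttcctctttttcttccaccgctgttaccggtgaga
Pgf, upstream match: gcctagctccgaGGGGCCaggagatctgcg
Pgf, downstream match: cgggctgctcctGGGGCCtcgagatagaag
Vegfb: cagccccggccaGGCCCCctgccacccccc
The Flt1 window and the upstream Pgf window thus each carried 2 matches, and Vegfb carried 1. The window of Vegfb shows that a match was also present upstream of a ligand gene that did not pass the test. GC content was 70.4% in the Flt1 window, 68.4% in the upstream Pgf window and 76.4% in the Vegfb window. Windows without a match ran from 59.2% (the upstream Vegfa window) to 72.4% (a Pdgfa window). The part of GC content in the matches was not tested.

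Pgf encodes placental growth factor, a ligand of the Flt1 product. The gene (Entrez 18654) had 16, 13, 12 and 7 counts in control libraries 1, 2, 3 and 5. It had 117, 100, 113 and 81 counts in the Zac1 libraries of the same numbers. These counts correspond to 0.468, 0.369, 0.377 and 0.229 CPM in controls and to 2.80, 2.84, 2.72 and 1.92 CPM with Zac1. The groups were far apart, and the library numbered 5 was the lowest of each group. The mean was 0.361 ± 0.0986 CPM (SD, n = 4) in controls and 2.57 ± 0.438 CPM (SD, n = 4) with Zac1. The edgeR fit put the log2 change at 2.81 ± 0.23 (SE), a 95% interval of 4.96-fold to 9.86-fold (edgeR adjusted p = 4.36e-06).

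Vegfa encodes the principal angiogenic ligand of the family. Vegfa (Entrez 22339) stood at 428.8, 351.6, 368.2 and 303.7 CPM in control libraries 1, 2, 3 and 5, and at 438.2, 371.6, 361.7 and 313.9 CPM in the Zac1 libraries. The groups overlapped almost completely. The mean was 363 ± 51.7 CPM (SD, n = 4) in controls and 371 ± 51.2 CPM (SD, n = 4) with Zac1. The log2 change was 0.03 ± 0.12 (SE; edgeR adjusted p = 0.984), and the 95% interval ran from 0.852-fold to 1.23-fold. An increase of the size seen for Pgf lies outside this interval. The sign of the Vegfa change turned without control library 5 (log2 -0.036) or without Zac1 library 1 (log2 -0.057).

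Vegfb encodes a ligand of the Flt1 product. Vegfb (Entrez 22340) ran from 14.5 to 16.7 CPM in controls and from 13.2 to 16.2 CPM with Zac1, and the groups overlapped. Its log2 change was -0.11 ± 0.08 (SE; edgeR adjusted p = 0.902; 95% interval 0.820-fold to 1.05-fold). Vegfc encodes the lymphatic growth factor VEGF-C. Vegfc (Entrez 22341) stood at 2.57, 2.13, 2.39 and 2.94 CPM in controls and at 2.72, 2.18, 3.11 and 2.96 CPM with Zac1. Its groups overlapped too, with a log2 change of 0.14 ± 0.15 (SE; edgeR adjusted p = 0.954; 95% interval 0.875-fold to 1.38-fold). The remaining ligand of the family, VEGF-D, is encoded by a gene listed as Figf, which is not among the 10. It was at 2.57 ± 0.279 CPM (SD, n = 4) in controls and 2.48 ± 0.330 CPM (SD, n = 4) with Zac1 (log2 -0.06, edgeR adjusted p = 0.981).

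**Figure D1:**
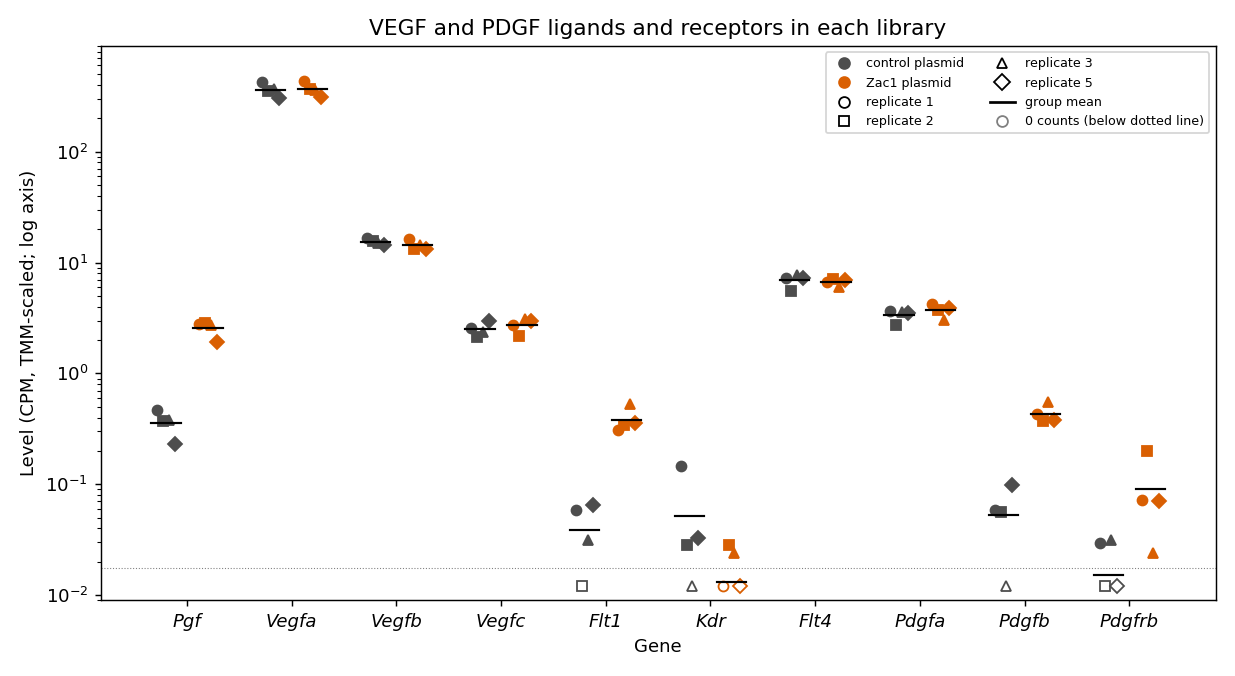
Level of each of the 10 genes in each library, in CPM on a log axis. Grey symbols are control libraries, orange symbols Zac1 libraries, symbol shapes give the replicate number, black bars are group means, and open symbols below the dotted line are libraries with 0 counts. For Pgf, Flt1 and Pdgfb all 4 Zac1 libraries sit above all 4 controls, while the groups overlap for the other 7 genes.

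Flt1 encodes VEGF receptor 1, which binds VEGF-A, VEGF-B and placental growth factor and is also made as a soluble form that traps ligand. Flt1 (Entrez 14254) had 2, 0, 1 and 2 counts in control libraries 1, 2, 3 and 5 and 13, 12, 22 and 15 counts in the Zac1 libraries. It was near silence in every control library and present in every Zac1 library, with the highest value in Zac1 library 3. The mean was 0.0388 ± 0.0298 CPM (SD, n = 4) in controls and 0.384 ± 0.0991 CPM (SD, n = 4) with Zac1. The log2 change was 3.23 ± 0.54 (SE; edgeR adjusted p = 0.00257; 95% interval 4.23-fold to 20.8-fold). The ratio of the summed counts, 62 against 5, was 10.2 after scaling, with an exact 95% counting interval of 4.13 to 32.4. Gene counts do not separate the membrane and soluble forms.

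Flt4 encodes VEGF receptor 3, known for its role in lymphatic endothelium. Flt4 (Entrez 14257) stood at 7.22, 5.54, 7.75 and 7.26 CPM in controls and 6.67, 7.15, 6.07 and 6.93 CPM with Zac1. It was the one VEGF receptor above 1 CPM, in all 8 libraries, and its groups overlapped (log2 -0.05 ± 0.11, SE; edgeR adjusted p = 0.978; 95% interval 0.817-fold to 1.14-fold). Without control library 3 its log2 change was 0.012, of the opposite sign. Kdr encodes VEGF receptor 2, the main signalling receptor for VEGF-A on endothelial cells. Kdr (Entrez 16542) had 5, 1, 0 and 1 counts in controls and 0, 1, 1 and 0 counts with Zac1. It was close to or at 0 in all but control library 1. The ratio of its summed counts was 0.234, with an exact counting interval of 0.0237 to 1.23 that includes equal levels, and in the fit without a low-count filter it was not called (edgeR adjusted p = 0.824; 2.14% of 19900 genes called). A difference in Kdr was not detectable at this depth.

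Pdgfa and Pdgfb encode the A and B chains of PDGF. Pdgfb (Entrez 18591) had 2, 2, 0 and 3 counts in control libraries 1, 2, 3 and 5 and 18, 13, 23 and 16 counts in the Zac1 libraries. Every Zac1 library lay above every control, and library 3 was again the highest of the Zac1 group. Its mean was 0.0534 ± 0.0404 CPM (SD, n = 4) in controls and 0.433 ± 0.0852 CPM (SD, n = 4) with Zac1. The log2 change was 2.95 ± 0.49 (SE; edgeR adjusted p = 0.00246; 95% interval 3.75-fold to 16.0-fold), and the ratio of summed counts was 8.19, with an exact counting interval of 3.77 to 21.1. GENCODE M21 places an antisense gene, Gm41361, over exons of Pdgfb. The strand setting of the counting is not given in the sources used here, so reads from the opposite strand cannot be told apart and the value of Pdgfb is uncertain to that extent.

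Pdgfa (Entrez 18590) stood at 3.66, 2.73, 3.55 and 3.50 CPM in controls and at 4.26, 3.77, 3.01 and 3.88 CPM with Zac1. The groups overlapped, and control library 2 and Zac1 library 3 were the lowest of their groups. The log2 change was 0.15 ± 0.14 (SE; edgeR adjusted p = 0.936; 95% interval 0.902-fold to 1.37-fold). Pdgfa also has an antisense gene over its exons in GENCODE M21. Pdgfrb encodes the receptor that binds the B chain. Pdgfrb (Entrez 18596) had 1, 0, 1 and 0 counts in controls and 3, 7, 1 and 3 counts with Zac1. Its groups overlapped at 1 count, and 7 of its 14 counts with Zac1 came from library 2. The ratio of summed counts was 5.74, with an exact counting interval of 1.32 to 52.0 that leaves out the spread between libraries. In the fit without a low-count filter it was not called (edgeR adjusted p = 0.538, unadjusted p = 0.0329).

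**Figure D2:**
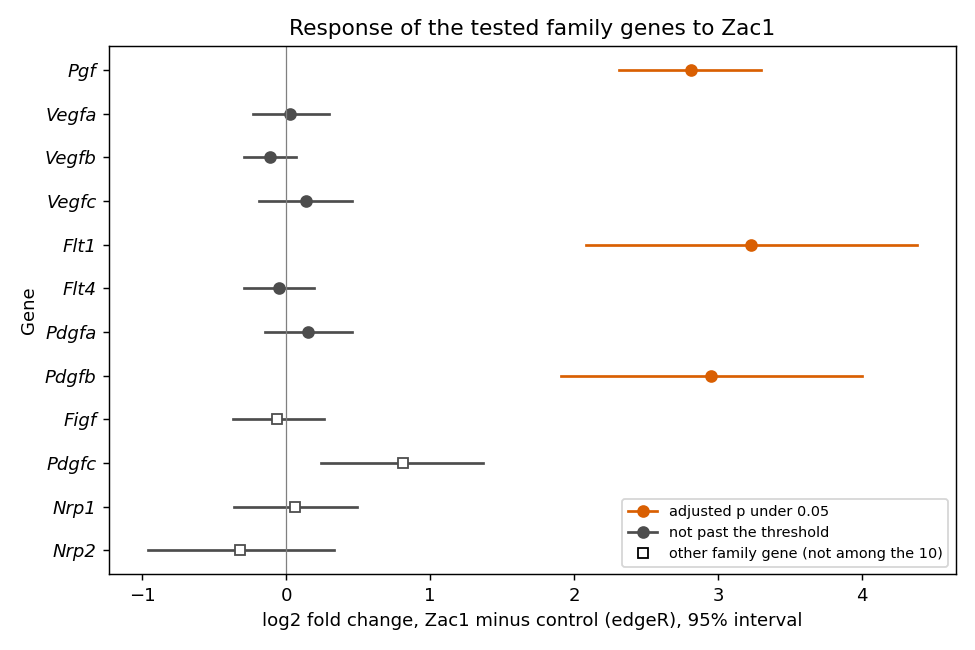
log2 fold change (Zac1 minus control, edgeR) with its 95% interval for the 8 tested members (circles) and for the other tested family genes (open squares). Pgf, Flt1 and Pdgfb (orange, adjusted p under 0.05) have intervals that start at 1.91 or above, while the intervals of the other 5 members include 0.

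The responses of the 3 called genes lay at the low end of the counts, taken as CPM and not per length. Among the 8 tested members, Flt1, Pdgfb and Pgf had the 3 lowest control means, and the 5 members with control means from 2.51 CPM (Vegfc) to 363 CPM (Vegfa) were not called. The median control level of all tested genes was 22.4 CPM. A gene near silence in both groups could not enter the test, so the empty region at low control levels and small changes is made by the filter.

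**Figure D3:**
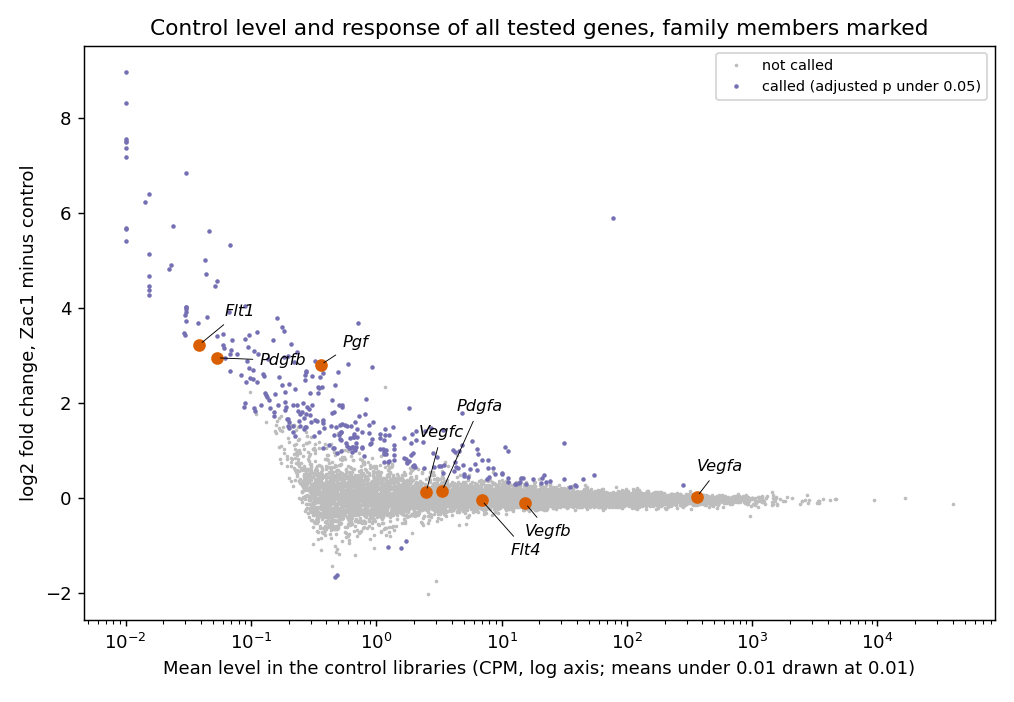
Mean control level (CPM, log axis) against log2 fold change for all 14331 tested genes, with called genes in purple and the 8 tested members in orange. Flt1, Pdgfb and Pgf sit among the called genes at control means of 0.0388 to 0.361 CPM, and the other 5 members lie near 0 on the vertical axis.

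Levels were compared between genes per kilobase of exon, as CPM divided by the GENCODE M21 exon length of protein-coding transcripts. In controls, Vegfa came first at 103 ± 14.7 (SD, n = 4) and Vegfb followed at 12.1 ± 0.746 (SD, n = 4). Pdgfa (1.14), Flt4 (1.11) and Vegfc (1.02) came next and overlapped in their ranges over libraries. Pgf followed at 0.173, below all 3 of them. Pdgfb (0.0175), Kdr (0.00875), Flt1 (0.00354) and Pdgfrb (0.00277) overlapped at the bottom, each with at least 1 control library at 0.

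With Zac1, Pgf on this scale ranged from 0.921 to 1.36 per kilobase and overlapped with Pdgfa (1.02 to 1.45), Vegfc (0.892 to 1.27) and Flt4 (0.971 to 1.14). Pgf, below Vegfc in every control library, thus overlapped with it in the Zac1 libraries. Pdgfb at 0.121 to 0.181 and Flt1 at 0.0284 to 0.0484 stayed below that range. Flt1 overlapped with Pdgfrb (0.00440 to 0.0362), which overlapped with Kdr (0 to 0.00479). Some overlaps of Pdgfa and Flt1 depend on the length used. Per kilobase of the longest transcript, means with Zac1 were 1.81 for Pdgfa, 0.0557 for Flt1 and 0.0168 for Pdgfrb.

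As a share of the summed per-kilobase level of the 5 VEGF ligand genes, Figf included, Pgf made up 0.110% to 0.164% in controls and 0.897% to 1.14% with Zac1. Vegfa held 86.2% to 88.6% of this sum in controls and 86.8% to 88.4% with Zac1. The ligand pool as measured by mRNA was therefore mostly Vegfa in all 8 libraries. Among the 3 VEGF receptor genes, Flt4 held 97.5% to 99.8% in controls and 94.9% to 97.4% with Zac1, and Flt1 held 0% to 0.509% and 2.59% to 4.73%. Among the 4 PDGF ligand genes, Pdgfb held 0% to 2.32% in controls and 6.37% to 12.2% with Zac1, and Pdgfa held 70.9% to 86.1% and 67.9% to 75.7%.

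Co-receptors and the remaining PDGF genes gave smaller or less precise values. The neuropilins are co-receptors for VEGFs. Nrp1 was at 1.58 ± 0.135 CPM (SD, n = 4) in controls and 1.64 ± 0.432 CPM (SD, n = 4) with Zac1 (edgeR adjusted p = 0.984), and Nrp2 at 0.919 ± 0.286 and 0.723 ± 0.272 CPM (edgeR adjusted p = 0.939). Pdgfc, a PDGF ligand that needs proteolytic activation, ran from 0.491 to 1.02 CPM in controls and from 0.916 to 1.44 CPM with Zac1. Control library 2 lay inside the range of the Zac1 group, and Pdgfc did not pass the test over all genes (log2 0.81 ± 0.26, SE; edgeR adjusted p = 0.24). Pdgfd had 18 counts in controls and 29 with Zac1 in all, and the receptor gene Pdgfra 6 and 16, both too few for the test. The groups overlapped for Pdgfd. For Pdgfra they did not, at 0.0293 to 0.0852 CPM in controls and 0.0946 to 0.114 CPM with Zac1. The ratio of its summed counts was 2.18, with an exact counting interval of 0.812 to 6.82 that includes equal levels. Antisense genes overlap exons of Pdgfc and Pdgfra in GENCODE M21.

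Among the other pathway genes, 80 from 8 lists were in the table and 70 were tested, of which 3 were called higher and 0 lower, beside 2.15% and 0.0349% of all tested genes. The 3 called genes passed the low-count filter only through their level with Zac1. The median log2 change of the tested pathway genes was 0.03, against -0.01 for all tested genes. She, an SH2-domain adaptor related to Shb, had 1, 1, 3 and 0 counts in controls and 21, 16, 23 and 25 with Zac1. The groups were apart, at 0.0380 ± 0.0399 and 0.525 ± 0.0601 CPM (SD, n = 4 each; log2 3.68 ± 0.49, SE; edgeR adjusted p = 0.000347). She was the called gene among 31 tested adaptors and effectors, with Pxn next. Pxn, for the adhesion adaptor paxillin, stood at 12.8 ± 0.719 and 15.8 ± 0.888 CPM (SD, n = 4 each) and missed the threshold (log2 0.30 ± 0.07, SE; edgeR adjusted p = 0.0516). It passed in DESeq2, with other scalings and without a low-count filter, but not in limma-voom or with a minimum mean of 50 counts.

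Hif3a, a hypoxia-inducible factor subunit with forms that restrain the others, had 15, 12, 4 and 1 counts in controls and 77, 103, 80 and 70 with Zac1. The controls were spread widely and all lay below the Zac1 libraries (log2 3.08 ± 0.39, SE; edgeR adjusted p = 0.000357). It was the called gene among 9 oxygen-sensing regulators. Hif1a, which encodes the oxygen-regulated subunit, stood at 107 ± 5.10 CPM in controls and 113 ± 8.11 CPM with Zac1 (SD, n = 4 each; edgeR adjusted p = 0.899).

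Adamts3, a protease known to cleave pro-VEGF-C, had 3, 4, 4 and 10 counts in controls and 43, 26, 20 and 13 with Zac1. Its groups overlapped in CPM, since control library 5 was above Zac1 library 5 (0.327 against 0.307 CPM). It was just past the threshold (log2 1.97 ± 0.48, SE; edgeR adjusted p = 0.0469) and lost the call in limma-voom (adjusted p = 0.0664) and when any 1 of the libraries numbered 1, 2 or 3 was left out (edgeR adjusted p = 0.0597 to 0.173). Adamts3 was the called gene among 6 tested genes for ligand processing. Furin, a convertase that processes VEGF-C and PDGF precursors, stood at 62.5 ± 5.19 and 66.8 ± 5.37 CPM (SD, n = 4 each; edgeR adjusted p = 0.885). She was below the filter's cutoff of 0.287 CPM in every control library, Adamts3 in control libraries 1, 2 and 3, and Hif3a in control libraries 3 and 5. She, Hif3a and Adamts3 thus entered the test through their level with Zac1, which raises the share called among the tested pathway genes.

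Response genes of VEGF and PDGF signalling gave no call among 18 tested in edgeR, DESeq2 or limma-voom fits on group alone. At an unadjusted p under 0.05, 5 were higher and 0 lower in edgeR, where 5.65% of all tested genes were higher and 1.93% lower. The median log2 change was 0.14 over the 18, against -0.01 for all tested genes. The 2 with the smallest p were Spry4, a feedback inhibitor of receptor tyrosine kinases, and Fos, a transcription factor of the early response. Spry4 was at 13.8 ± 0.867 and 16.6 ± 1.45 CPM (log2 0.27 ± 0.08, SE; edgeR adjusted p = 0.175), and Fos at 10.3 ± 1.42 and 12.8 ± 1.11 CPM (log2 0.31 ± 0.10, SE; edgeR adjusted p = 0.244; SD, n = 4 each). The group of PDGF receptors and relatives had 0 of 2 tested genes called in edgeR, DESeq2 or limma-voom, and 0 at an unadjusted p under 0.05. These were Kit, a receptor kinase of the same class (13.2 ± 0.791 and 13.7 ± 0.323 CPM), and Pdgfrl, a receptor-like gene without a kinase domain (4.89 ± 0.289 and 4.21 ± 0.481 CPM; SD, n = 4 each).

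**Figure D4:**
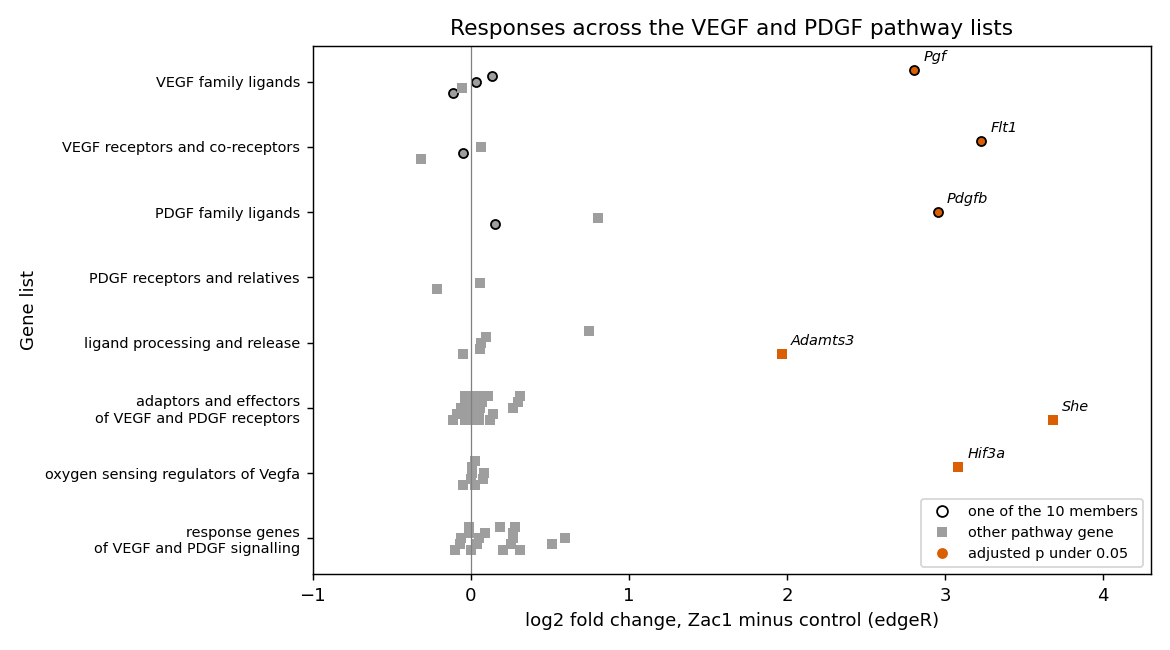
log2 fold change (Zac1 minus control, edgeR) of each tested gene of the 8 pathway lists. Outlined circles are members, squares other pathway genes, and orange marks an adjusted p under 0.05. The 6 called genes lie at 1.97 or above, and the other tested genes lie below 1.

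The genes whose profile over the 8 libraries was most like that of each called member were picked among called genes that averaged 50 counts or more over the libraries. Likeness was the root mean square difference of log2(CPM + 0.1) after the control mean was subtracted, a scale that understates the change of low genes. For Pgf these were Hr, a nuclear receptor corepressor (difference 0.342), Ptprv, a receptor-type phosphatase (0.429), and Crim1, a transmembrane protein with cysteine-rich repeats (0.493), out of 119 genes. For Flt1 they were Cpne5, a calcium-binding copine (0.325), the integrin chain Itgal (0.393) and the Rab11 effector Rab11fip5 (0.397), out of 120. For Pdgfb they were the cadherin Dchs1 (0.320), Cpne5 again (0.356) and Ankrd34b (0.395). In the order named, the edgeR log2 changes were 2.77, 2.65 and 2.37, beside 2.81 for Pgf itself. Those picked for Flt1 changed less than Flt1, by 1.90, 1.60 and 1.44 against 3.23. Those picked for Pdgfb also changed less, by 1.95, 1.90 and 1.49 against 2.95. Cpne5 stood at 1.84 ± 0.218 CPM in controls and 6.88 ± 0.545 CPM with Zac1 (SD, n = 4 each).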

How the data were processed

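Stranded mRNA libraries were made for 8 samples, per the labels' protocols, and the authors deposited their unnormalized read counts for 23100 genes. The submitters' processing notes name HTSeq 0.6.1p1, TopHat2 2.1.1 and Bowtie2 2.2.8, beside bcl2fastq 2.17 and FastQC, and the build mm9. They give no annotation and no strand setting.

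From these counts, genes were kept by filterByExpr (14331), totals scaled by TMM, and groups compared with edgeR 4.0.16 (R 4.3.3; robust quasi-likelihood fit, intercept and group; Benjamini-Hochberg adjusted p threshold 0.05 over all tested genes). SEs were derived from the fold change and F statistic, and 95% intervals from the SE. Counting intervals are exact (Clopper-Pearson, 95%) and, like the depth of 30.5 to 42.4 M counts (3 counts are 0.0709 to 0.0981 CPM), cover counting error only, since reads are not independent molecules. DESeq2 1.42.0, limma-voom (limma 3.58.1), other scalings and filters, the replicate number as a block, and leaving out libraries were alternatives. The fits were also run on simulated counts. Changes were planted there only in genes with higher mean counts than Flt1, Pdgfb, She and Adamts3, so that run says nothing about their calls. Exon lengths came from GENCODE M21 and promoters from RefSeq, both on GRCm38, and no coordinates of the mm9 counting were used.

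The members and lists were chosen with earlier results of these data known. Named genes are Plagl1, the 10 members, other family ligands and receptors, each called pathway gene, the 2 genes with the smallest p of each list without a call, the 3 called genes most like each called member, and the cell type markers. Furin, Hif1a and Pxn were named after their values were seen. The design text calls the replicates biological and no label says more, so p-values measure the spread between these libraries, which may in part be technical.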

Additional observations from a re-analysis of the deposited data

Results flagged for a closer look

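In each group of 4 libraries, the highest and lowest values of the 10 members and Plagl1 were set against Dixon's critical value of 0.829 for the gap to the nearest library over the range. Of 22 groups tested, 3 had a library that stood apart, where chance gives about 1 in 20. Pgf in Zac1 library 5 was low, at 1.92 CPM against a group median of 2.76 CPM, and still above every control library. Pdgfa in control library 2 was low, at 2.73 CPM against a median of 3.52 CPM. Plagl1 in Zac1 library 1 was high, at 5786 CPM against a median of 4308 CPM. The library highest for Plagl1 was not the highest of its group for Pgf, Flt1 or Pdgfb.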

How the results depend on the processing

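Pgf kept its direction and its call in all 16 alternatives, with log2 changes of 2.66 to 2.96 (adjusted p = 3.83e-19 to 7.56e-05 over edgeR, DESeq2 and limma-voom fits). Flt1 (2.82 to 3.60) and Pdgfb (2.58 to 3.42) kept theirs in the 15 alternatives in which they were tested. With a minimum mean of 50 counts neither could be tested, and 1 member, 0 other pathway genes and 99 genes in all were called. Without 1 library the members called were 3 each time, the other pathway genes 2 to 5 (5 without Zac1 library 5), and all genes 262 to 362. Without 1 library each, Vegfa ran from -0.057 (without Zac1 library 1) to 0.13, also below 0 at -0.036 without control library 5, and Flt4 from -0.14 to 0.012 (without control library 3).

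The replicate block raised the calls to 628 genes (512 higher, 116 lower), 4.38% of those tested, with 3 members and 8 other pathway genes, to which Fos (adjusted p = 0.0182), Pdgfc (0.0448), Ptprj, Pxn and Spry4 (0.0140) were added. No label says that the numbers pair cultures. Deviations of same-numbered libraries from their group means correlated at 0.485, 0.0725, 0.322 and 0.534 for numbers 1, 2, 3 and 5, and control library 2 correlated best with Zac1 library 3. The block changed no call of a member. Counts limit Flt1, Pdgfb, Kdr and Pdgfrb.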

Other observations

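Vegfa ordered the libraries in a like way in both groups: the library numbered 1 was the highest (428.8 CPM in the control, 438.2 CPM with Zac1) and the library numbered 5 the lowest (303.7 and 313.9 CPM). The log2 ratio of Zac1 to control libraries of the same number (CPM + 0.1) was 0.03, 0.08, -0.03 and 0.05, so Vegfa differed more between numbers than between plasmids.

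Over all genes called higher, 55.6% of 270 upstream windows of 250 bases held GGGGCC on either strand, and 11 windows (4.07%) held GGGGCCCC, against 32.0% and 1.15% of 12924 windows of tested genes. The median GC content of the windows also differed, at 64.8% for genes called higher and 59.6% for tested genes. The part of GC content in these shares was not tested.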
